A study of Mus musculus with 54 samples.

Results

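Gene expression was compared between motor neurons of the hypoglossal nucleus (cranial nucleus 12, CN12) from mSOD mice and from wild-type mice at postnatal day 56 (P56). All libraries labelled as CN12 at that age entered the comparison, which gave 6 of the 54 libraries of the series: 3 mSOD and 3 wild type, all with names of the same sequencing project (P11355). The mSOD mice carry SOD1G93A, a mutant human SOD1 gene, in addition to their own Sod1, and the wild-type animals were their littermates without it. The labels place P56 before symptoms. In this model the transgene is driven by the human SOD1 promoter and is active in many cell types, so a difference between the arms is not limited to an action of the transgene inside the neuron. The neurons were cut out of tissue with a laser (laser capture microdissection), and each library was a bulk library of polyadenylated RNA made with Smart-seq2, a full-length protocol that amplifies cDNA by PCR without molecular identifiers. The labels call the replicates biological but do not tie a library to an animal, and replicate numbers only name the libraries. The p-values therefore measure only spread between libraries, which the main fit estimated over all 54 libraries of the series, not from these 6 alone.

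Hypoglossal motor neurons send their axons to the muscles of the tongue and serve swallowing, breathing and, in people, speech. They release acetylcholine, which is made by Chat and loaded into vesicles by Slc18a3. In amyotrophic lateral sclerosis (ALS) and in SOD1 mice they are among the motor neurons that degenerate, whereas those that move the eyes are largely spared. The comparison asked which genes differed in these neurons before symptoms.

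Depth was 5231749, 4150458 and 3893492 counts in wild-type replicates 1 to 3 and 8877994, 7016505 and 4293978 counts in mSOD replicates 1 to 3, and 22095 to 24414 genes had at least 1 count. Human SOD1 made up 7.64%, 7.94% and 6.91% of the counts in mSOD replicates 1 to 3, and 0.000994%, 0.000867% and 0.000950% (52, 36 and 37 counts) in wild type. The 95% Wilson intervals of the mSOD shares lay between 6.89% and 7.96%, and such intervals cover counting error only. The transgene therefore followed the labels in all 6 libraries. Mouse Sod1 was measured at 423, 668 and 816 CPM (counts scaled to a common library size with the TMM factors of edgeR) in wild type and at 955, 892 and 731 CPM in mSOD, with overlapping arms (log2 change 0.43, SE 0.24, adjusted p 0.537 in edgeR). The summed CPM of 21 motor neuron identity genes was 7167, 6582 and 6023 in wild type and 7515, 6130 and 6578 in mSOD. Hox genes of the lumbar cord had 0 CPM in all 6 libraries and those of the caudal hindbrain summed to 40.4 to 55.1 CPM. Single genes of the caudal hindbrain list were less even than that sum. Of 11 tested, 5 were higher and 6 lower in mSOD, 2 and 3 of them at an unadjusted p under 0.05 in edgeR. That compares with 9.73% of all genes tested, and the smallest adjusted p in edgeR was 0.443.

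Wild-type replicate 1 stood apart. Its rank correlation with the other 5 libraries was 0.911 to 0.941, while each of those reached 0.961 to 0.971 with at least 1 other library. Markers of glutamatergic neurons (the vesicular glutamate transporters Slc17a6, Slc17a7 and Slc17a8) summed to 191.5 CPM in it, against 3.98 and 42.9 in wild-type replicates 2 and 3 and 15.9, 1.77 and 1.44 in mSOD replicates 1 to 3. Mitochondrially encoded genes took 12.1% of its counts, against 8.14% and 6.0% in the other wild-type libraries and 4.56%, 3.38% and 6.40% in mSOD. Genes whose longest annotated transcript is under 1500 bases took 15.4% of its protein-coding counts, the lowest share of the 6, against 18.7% and 19.7% in the other wild-type libraries. That share was 23.6% and 23.9% in mSOD replicates 1 and 2 and 19.3% in mSOD replicate 3. The arms thus overlapped in both of these shares through mSOD replicate 3 and wild-type replicate 3. Fits without wild-type replicate 1 were run for the results below, as were fits that hold the short-transcript share of each library as a covariate (an alternative chosen after seeing the data), and their log2 changes are given for named genes and lists that they moved most.

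**Figure D1:**
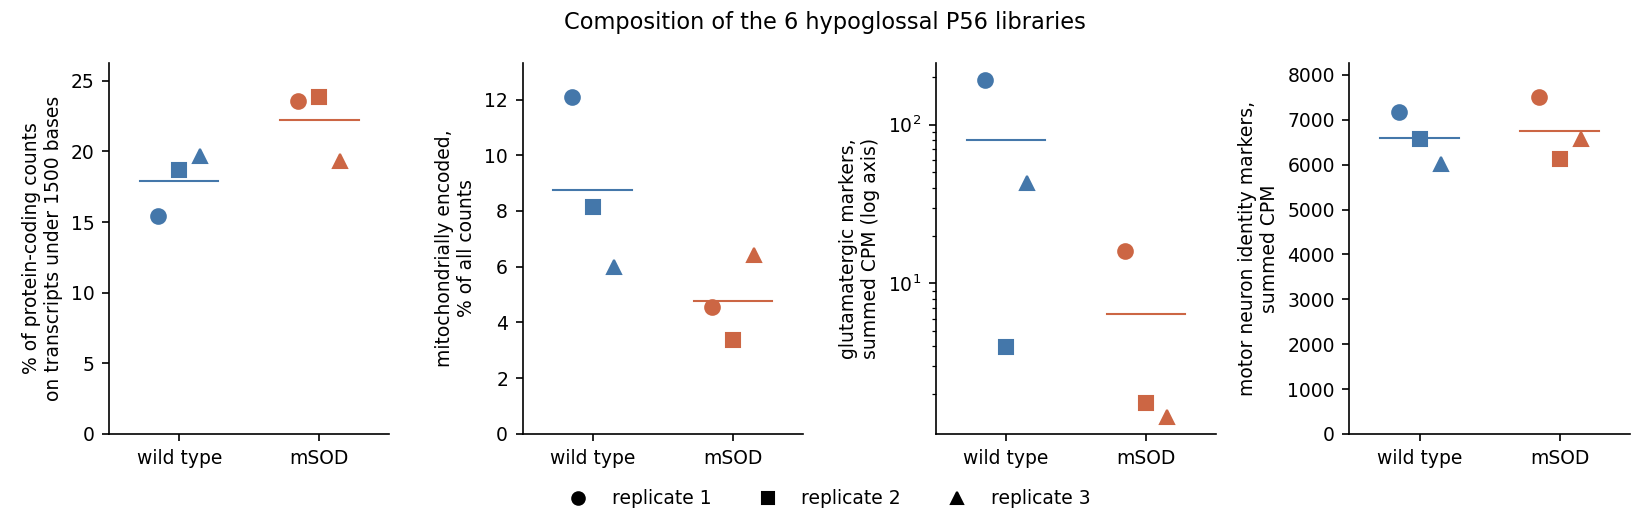
Composition of the 6 hypoglossal P56 libraries. The panels give, from left to right, the percent of protein-coding counts on transcripts under 1500 bases, the percent of all counts on mitochondrially encoded genes, the summed CPM of glutamatergic markers (log axis) and the summed CPM of motor neuron identity genes; symbols mark replicates and lines the arm means. Wild-type replicate 1 has the lowest short-transcript share (15.4%), the highest mitochondrial share (12.1%) and the highest glutamatergic sum (191.5 CPM), while the identity sum overlaps between the arms.

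Of 18493 mouse genes tested, 1 changed at an adjusted p under 0.05 (0.00541% of genes; edgeR's quasi-likelihood test with Benjamini-Hochberg adjustment): Hlf, which fell in mSOD. At an unadjusted p under 0.05, 1799 genes (9.73%) differed, 799 higher and 1000 lower in mSOD. The 3 mSOD and 3 wild-type values did not overlap for 2651 genes (14.3%), 1452 higher and 1199 lower, and the median log2 change of all genes tested was −0.0153. DESeq2 gave 12 genes at an adjusted p under 0.05, Hlf among them. Without wild-type replicate 1, edgeR gave 0 genes at an adjusted p under 0.05 and 457 at an unadjusted one (210 higher, 247 lower). Without mSOD replicate 2 or 3 edgeR also gave 0 (877 and 2669 at an unadjusted p under 0.05), without mSOD replicate 1 it gave 2, without wild-type replicate 2 it gave 13 and without wild-type replicate 3 it gave 1. Of the 1799 genes, 361 (20.1%) also had an unadjusted p under 0.05, in the same direction, in the edgeR fit without wild-type replicate 1. Wild-type replicate 1 was the highest of the 3 wild-type libraries for 80.9% of the 1000 lower genes, against 38.0% of all genes tested, and the lowest for 89.0% of the 799 higher genes, against 40.9% of all.

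Hlf (ENSMUSG00000003949) encodes hepatic leukemia factor, a transcription factor of the PAR bZIP family, whose members Dbp, Tef and Hlf carry the rhythm of the circadian clock to other genes. It was measured at 38.4, 3.04 and 7.58 CPM in wild-type replicates 1 to 3 (195, 13 and 32 counts) and at 2.19, 1.18 and 0.479 CPM in mSOD replicates 1 to 3 (18, 8 and 2 counts). The arms did not overlap, but the lowest wild-type library lay close to the highest mSOD library, and wild-type replicate 1 was far above the rest. The means were 16.3 ± 19.2 CPM in wild type and 1.28 ± 0.858 CPM in mSOD (SD, n = 3 each), and the log2 change was −3.56 (SE 0.60, adjusted p 0.00559 in edgeR).

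Hlf did not pass without wild-type replicate 1 (log2 change −1.93, adjusted p 1), without mSOD replicate 2 (−3.47, adjusted p 0.228) or without mSOD replicate 3 (−3.25, adjusted p 0.210). It did not pass when only project P11355 was fitted (−3.52, adjusted p 0.514) or only the 6 libraries (−3.56, adjusted p 0.314), although the log2 change was nearly as large there. With the short-transcript covariate its log2 change was −2.38 (adjusted p 1). Over all 54 libraries, wild-type replicate 1 held the highest Hlf value and mSOD replicate 3 the lowest.

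In the other groups of the series Hlf lay between these extremes. At P56 its lowest, median and highest CPM were 2.04, 6.29 and 12.2 in wild-type CN3/4 (oculomotor and trochlear neurons) and 3.72, 3.72 and 5.68 in mSOD CN3/4. They were 12.8, 19.7 and 19.9 in wild-type CN10 (vagus) and 16.7, 21.7 and 32.1 in mSOD CN10. In the spinal cord (SC) at P56 they were 3.56, 6.82 and 8.15 in wild type and 4.44, 5.70 and 6.87 in mSOD. In each of these 3 pairs the arms overlapped. At P112, the age the labels call symptomatic, wild-type CN12 had 2.27, 2.7 and 3.59 and mSOD CN12 had 1.02, 2.67 and 3.29. The levels in CN10 at P112 were 11.5, 15.9 and 18.7 in wild type and 6.30, 7.51 and 8.68 in mSOD, without overlap, and in CN3/4 and SC at P112 all libraries lay between 2.48 and 13.2. The CN10 groups had medians of 7.51 to 21.7 CPM over both ages. They were the highest groups, except that mSOD CN10 at P112 (7.51) lay just below wild-type CN12 at P56 (7.58). The medians of CN3/4, SC and wild-type CN12 all lay between 2.7 and 7.58 and their libraries overlapped.

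The relatives of Hlf and the core clock genes gave no second call. Dbp was near its detection limit, at 0.394, 0.702 and 0.948 CPM in wild type and 0.243, 0 and 0.239 in mSOD, and Tef was measured at 26.4, 19.6 and 26.5 CPM against 32.3, 28.3 and 22.0 (log2 change 0.19), with overlapping arms. Clock, a subunit of the dimer that drives the rhythm, was lower in mSOD without overlap (67.3, 63.4 and 51.0 CPM against 35.0, 35.8 and 39.3; log2 change −0.72, SE 0.30, adjusted p 0.455; −0.06 with the covariate). Nr1d2, a nuclear receptor that represses clock genes, overlapped between the arms (103, 58.5 and 37.5 CPM against 28.9, 26.1 and 47.6; log2 change −0.97; −0.48 without wild-type replicate 1 and 0.30 with the covariate). Of 22 circadian genes listed, 21 were tested: 9 were higher and 12 lower, 1 passed the adjusted test (Hlf), and the median log2 change was −0.06. Labels give no time of day of tissue collection.

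The 4 genes whose log2 CPM over the 6 libraries followed that of Hlf most closely were Xndc1 (Pearson r 0.997), Zfp536 (0.992), Tanc2 (0.991) and Nrip3 (0.987). Slc17a6, the glutamate transporter that marks glutamatergic neurons, reached 0.952 and Slc17a7 reached 0.873. These correlations describe 6 libraries, of which wild-type replicate 1 was the highest for Hlf, Zfp536 and Slc17a6. Elsewhere in the series Slc17a6 and Hlf did not always go together. They had the same order in the wild-type CN3/4 libraries at P56. In CN12 at P112 Slc17a6 was at 8.41 to 16.3 CPM in wild type and 1.41 to 2.19 in mSOD, while Hlf overlapped. Wild-type SC replicate 1 at P56 had 417 CPM of Slc17a6, the highest of the series, and 8.15 of Hlf. The part of the glutamatergic signal in the Hlf result was not tested.

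**Figure D2:**
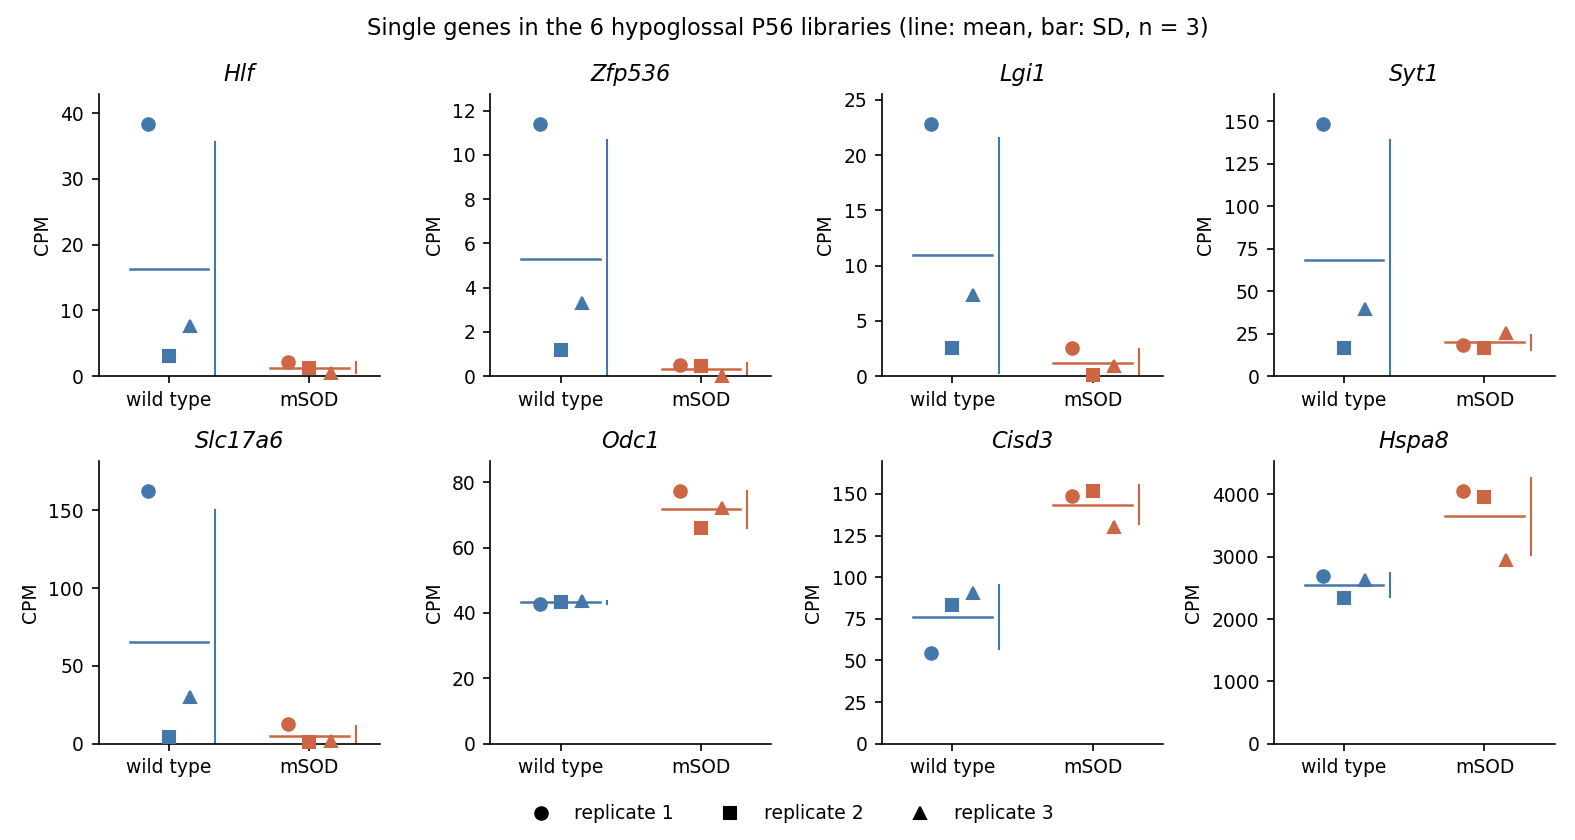
CPM of 8 genes in the 3 wild-type and 3 mSOD hypoglossal libraries at P56, on linear axes from 0; symbols mark replicates, horizontal lines the arm means and vertical bars 1 SD (n = 3), cut at 0 where they would go below it. Hlf, Zfp536, Lgi1, Syt1 and Slc17a6 have their highest value in wild-type replicate 1, whereas Odc1, Cisd3 and Hspa8 are higher in all 3 mSOD libraries than in any wild-type library.

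The next genes were ranked by p among those chosen for arms that do not overlap, so their lack of overlap is fixed by the choice. They did not pass the adjusted test (adjusted p-values in edgeR from 0.229 to 0.427) and are given as the head of that ranking, not as changed genes. Among those higher in mSOD, Odc1, the rate-limiting enzyme of polyamine synthesis, was the tightest. It was measured at 42.7, 43.3 and 43.6 CPM in wild type and at 77.2, 65.9 and 72 CPM in mSOD (log2 change 0.73, SE 0.20). Its difference was as large without wild-type replicate 1 (log2 change 0.74), and its log2 change was 0.42 in CN3/4 at P56. Odc1 rose in mSOD in SC at P56 (log2 change 0.89, SE 0.17, adjusted p 0.00566) and in CN12 at P112 (1.18, SE 0.21, adjusted p 0.00457). No other gene of the head of the ranking passed in SC at P56 or in CN12 at P112.

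Cisd3, an iron-sulfur protein of mitochondria, was measured at 54.5, 83.5 and 90.8 CPM in wild type and at 149, 152 and 130 CPM in mSOD (log2 change 0.91, SE 0.25; 0.34 with the covariate). Vac14, a scaffold of the kinase complex that makes a phosphoinositide of endosomes and lysosomes, was measured at 14.8, 15.9 and 20.9 CPM against 34.4, 34.4 and 35.4 (log2 change 1.01, SE 0.29). Slc16a6, of the monocarboxylate transporter family, was measured at 6.30, 10.1 and 8.53 CPM against 25.5, 19.5 and 19.4 (log2 change 1.37). Dll3, a member of the Notch ligand family, had 0 counts in each wild-type library and 9, 10 and 9 counts in mSOD, which is at least 2.36-fold higher against a floor of 3 counts in each wild-type library (adjusted p 0.391).

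The others of the 10 were Pgls of the pentose phosphate pathway (log2 change 1.44), Elob, a subunit of elongin and of ubiquitin ligases (0.91), Polr2l, a subunit shared by the RNA polymerases (0.93), Rcan3, a regulator of calcineurin (0.94), and Atp5j2, a subunit of ATP synthase (0.74). With the covariate the log2 changes were 0.51 for Pgls, 0.17 for Elob, 0.13 for Polr2l, 0.72 for Rcan3 and 0.15 for Atp5j2. For Pgls, Elob and Polr2l the third mSOD library lay just above the wild-type range: Elob was measured at 335, 544 and 566 CPM in wild type and 1053, 1006 and 655 in mSOD, and Pgls at 7.48, 8.42 and 16.1 against 29.9, 39.7 and 16.8.

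Among the genes lower in mSOD, Zfp536, a zinc finger repressor of neuronal differentiation, came first after Hlf by p once genes with overlapping arms were left out. It was measured at 11.4, 1.17 and 3.32 CPM in wild type and at 0.486, 0.442 and 0 in mSOD (log2 change −3.82, SE 0.84, adjusted p 0.229; −2.56 without wild-type replicate 1). Lgi1, a secreted synaptic protein whose loss causes epilepsy, was measured at 22.8, 2.57 and 7.35 CPM against 2.55, 0.147 and 0.958 (log2 change −3.07; −1.91 without wild-type replicate 1), so that wild-type replicate 2 and mSOD replicate 1 were nearly equal. Elmo1, an activator of the GTPase Rac, was measured at 65.5, 21.1 and 31.3 CPM against 20.9, 15.2 and 16.8 (log2 change −1.16; −0.56 without wild-type replicate 1). In all 3 genes wild-type replicate 1 was the highest library.

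Atad2b, a chromatin reader with a bromodomain, was lower in all mSOD libraries by a clear margin (26.2, 18.5 and 14.5 CPM against 7.65, 8.11 and 5.75; log2 change −1.45; −1.17 without wild-type replicate 1). Nrg3, a neuregulin that binds the receptor ErbB4, was highest in wild-type replicate 1, and wild-type replicate 3 lay close to the highest mSOD library (43.5, 22.9 and 16.1 CPM against 10.6, 6.19 and 13.4; log2 change −1.47; −0.96 without wild-type replicate 1 and −0.57 with the covariate). Plk2, an activity-regulated kinase of synapses, had at most 3 counts in each mSOD library and was at least 8.36-fold lower than in wild type (9.45, 1.40 and 1.90 CPM against 0.121, 0 and 0.718), with most of the wild-type signal again in replicate 1. Without that library the bound was 3.25-fold. The others were Smc2 of condensin (log2 change −1.75; −1.07 with the covariate), Reps2 of the endocytic machinery (−1.54; −0.88 without wild-type replicate 1 and −0.39 with the covariate) and Rgs17, which shortens G protein signals (−1.41; −0.89 and −0.40 in the same order).

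Markers of other cell types varied widely among the libraries of an arm. Of the 3 glutamatergic markers 2 were lower and 1, Slc17a8, was higher in mSOD (log2 change 1.15, and 2.91 without wild-type replicate 1; adjusted p 0.840). Slc17a6 was measured at 162, 3.98 and 29.9 CPM in wild type and 12.4, 1.33 and 1.44 in mSOD (log2 change −3.60, SE 1.21, adjusted p 0.433; −1.64 without wild-type replicate 1), and wild-type replicate 2 lay within the mSOD range. Oligodendrocyte markers summed to 352, 328 and 342 CPM in wild type and 239, 251 and 189 in mSOD, without overlap: 10 of 12 were lower, 0 at an unadjusted p under 0.05 in edgeR, with a median log2 change of −0.53. In bulk samples such as these, fewer cells of a type and less RNA per cell cannot be told apart.

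Astrocyte markers summed to 1082, 1510 and 1631 CPM in wild type and 1765, 1798 and 1457 in mSOD. Microglial markers summed to 22.2, 12.6 and 11.6 CPM against 13.5, 22.4 and 17.5, and both sums overlapped between the arms. Of 14 microglial genes 11 were tested, 8 higher and 3 lower with a median log2 change of 1.22, which was −0.45 when only the 6 libraries were fitted. C1qc, a chain of complement C1q, had 0, 0 and 1 counts in wild type and 6, 20 and 6 in mSOD, at least 2.55-fold higher against the floor (adjusted p 0.443). Endothelial and pericyte markers summed to 8.07, 20.1 and 8.30 CPM in wild type and 3.76, 2.95 and 4.55 in mSOD, without overlap. Inhibitory markers (1.2 to 42.9 CPM), serotonergic markers (0 to 9.01 CPM) and visceral motor neuron markers (at most 1.90 CPM) overlapped. The part of any of these in the gene results was not tested.

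The median log2 change fell with the length of the transcript, although single genes of like length differed in sign. Over 13506 genes with an annotated length, the rank correlation of log2 change with length was −0.249, a description across genes, which are not independent. The 570 genes under 1000 bases had a median log2 change of 0.39, with 120 higher and 7 lower at an unadjusted p under 0.05, and the 864 genes of 8000 bases or more had a median of −0.29, with 6 higher and 106 lower. The medians of the bins between lay in the order of length. Without wild-type replicate 1 the correlation was −0.208 and the medians of these outer bins were 0.25 and −0.17, and with the short-transcript share as a covariate the correlation was 0.075 and the medians −0.03 and 0.03. That covariate was itself computed from these libraries, and with it 477 genes had an unadjusted p under 0.05 and 0 passed. The same correlation was 0.138 in CN3/4 and 0.120 in SC at P56 and −0.172 in CN12 at P112. What sets the short-transcript share of a library was not tested.

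**Figure D3:**
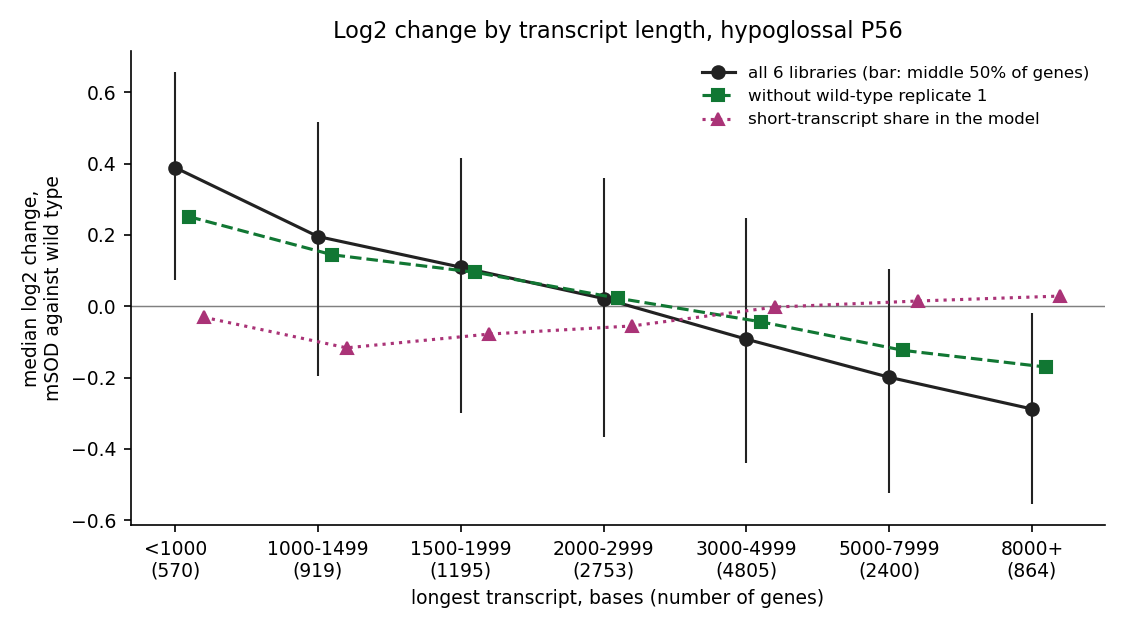
Median log2 change (mSOD against wild type) by longest transcript length in bases, with the number of genes in each bin in brackets. Black circles are all 6 libraries, with bars over the middle 50% of genes; green squares leave out wild-type replicate 1 and purple triangles have the short-transcript share in the model. The black medians run from 0.39 under 1000 bases to −0.29 at 8000 bases or more, the green ones from 0.25 to −0.17, and the purple ones stay between −0.12 and 0.03.

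The gene lists are read against this pattern. In no list but the circadian one did a member pass the adjusted test, and counts at an unadjusted p under 0.05 stand against 4.32% higher and 5.41% lower over all genes tested. Of 21 motor neuron identity genes tested, 13 were higher and 8 lower, and the median log2 change was 0.13. At an unadjusted p under 0.05 there were 2 higher and 1 lower, counts too small to read against those shares. Slc18a3, which loads acetylcholine into vesicles, was measured at 282, 530 and 518 CPM in wild type and at 802, 763 and 682 CPM in mSOD (log2 change 0.76, SE 0.29, adjusted p 0.443; 0.53 without wild-type replicate 1). Prph, the intermediate filament peripherin, was likewise above the wild-type range in each mSOD library (282, 531 and 581 CPM against 756, 770 and 654; log2 change 0.65). With the covariate these log2 changes were 0.17 and 0.07. Esrrg, a nuclear receptor of slow and gamma motor neurons, overlapped (151, 73.7 and 57.1 CPM against 49.6, 42.9 and 72.5; log2 change −0.78; 0.05 with the covariate). Chat overlapped as well, at 104, 96.4 and 158 CPM in wild type and 144, 137 and 93.1 in mSOD (log2 change 0.06).

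The neuropeptide genes Calca and Calcb, the members of the list with the highest RPKM, had log2 changes of 0.13 and 0.26. Spp1 (osteopontin), named here after its values were seen, was measured at 2240, 626 and 477 CPM in wild type and 467, 457 and 386 in mSOD (log2 change −1.35, SE 0.70; −0.32 without wild-type replicate 1). Its arms did not overlap, and wild-type replicate 1 was more than 3 times the next library.

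Of 23 cytoskeletal and transport genes, 12 were higher and 11 lower (median 0.04), but without wild-type replicate 1 they were 6 higher and 17 lower (median −0.10). Kif5c, a kinesin heavy chain (841, 494 and 467 CPM against 332, 233 and 418; log2 change −0.87; −0.22 with the covariate), and Map2, a microtubule-associated protein of dendrites (661, 525 and 350 CPM against 204, 206 and 412; −0.91; −0.01 with the covariate), were lower, the first without overlap. The neurofilament Nefl (−0.23) and Stmn2 (0.16) differed by less.

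Genes of vesicle release gave 8 higher and 11 lower of 19, 3 of the lower at an unadjusted p under 0.05, with a median of −0.07. Syt1, the calcium sensor of release, was measured at 149, 16.8 and 39.6 CPM in wild type and 18.2, 16.8 and 25.1 in mSOD (log2 change −1.78, SE 0.44, adjusted p 0.396; −0.50 without wild-type replicate 1). Cplx2, a complexin that clamps the fusion machinery, was measured at 99.2, 13.3 and 58.1 CPM against 20.4, 9.88 and 14.1 (log2 change −1.94; −1.26 without wild-type replicate 1). Snap25, of the fusion machinery itself, was measured at 6576, 2989 and 2314 CPM against 2376, 1867 and 2510 (−0.82; −0.22 without it). Each of the 3 was highest in wild-type replicate 1 and overlapped between the arms.

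Most excitability genes lay on the lower side, as did 9433 of all genes tested. Of 40 voltage-gated and leak channel genes 24 were lower (4 at an unadjusted p under 0.05) and 16 higher (1), with a median of −0.19, and of 47 transmitter receptor genes tested 29 were lower (3) and 17 higher (0), with a median of −0.24. With the short-transcript covariate both medians were on the other side of 0 (0.005 and 0.045). Kcnd2, an A-type potassium channel, was measured at 30.3, 7.25 and 14.0 CPM in wild type and 6.07, 5.90 and 5.03 in mSOD without overlap (log2 change −1.60, SE 0.45; −0.89 without wild-type replicate 1), and Cacna1b, the N-type calcium channel, at 51.0, 43.0 and 31.8 CPM against 25, 23.9 and 30.4 (−0.67). Grik1, a kainate receptor subunit, was measured at 17.3, 4.68 and 5.21 CPM against 2.31, 2.06 and 3.35 (−1.83; −0.94 without wild-type replicate 1). The AMPA receptor subunit Gria2 (−0.57) and the glycine receptor subunit Glrb (−0.47) were lower, and the NMDA receptor subunit Grin2b (0.45) higher, none with an adjusted p under 0.490. With the covariate Gria2 was at 0.12 and Glrb at 0.35.

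Of 29 calcium-handling genes tested, 10 were higher and 19 lower (0 and 3 at an unadjusted p under 0.05; median −0.10). Slc8a1, a sodium-calcium exchanger, was lower without overlap (183, 67.6 and 89.3 CPM against 52.3, 53.1 and 57.9; log2 change −1.06; −0.52 without wild-type replicate 1 and −0.13 with the covariate). Pvalb, the calcium buffer parvalbumin, which hypoglossal neurons are known to have little of, was measured at 240, 6.55 and 85.1 CPM in wild type and 29.4, 2.65 and 3.59 in mSOD (log2 change −3.16; −1.89 without wild-type replicate 1). Within each arm its libraries had the same order as for Slc17a6. Of 16 immediate early genes tested, 5 were higher and 11 lower (0 and 2; median −0.37, and 0.004 with the covariate). Fos was measured at 29.9, 7.25 and 10.4 CPM against 18.4, 10.2 and 14.6 (log2 change −0.15; 0.71 without wild-type replicate 1), and Homer1, without overlap, at 38.0, 22.0 and 26.8 CPM against 14.2, 15.6 and 21.5 (−0.76; −0.04 with the covariate).

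**Figure D4:**
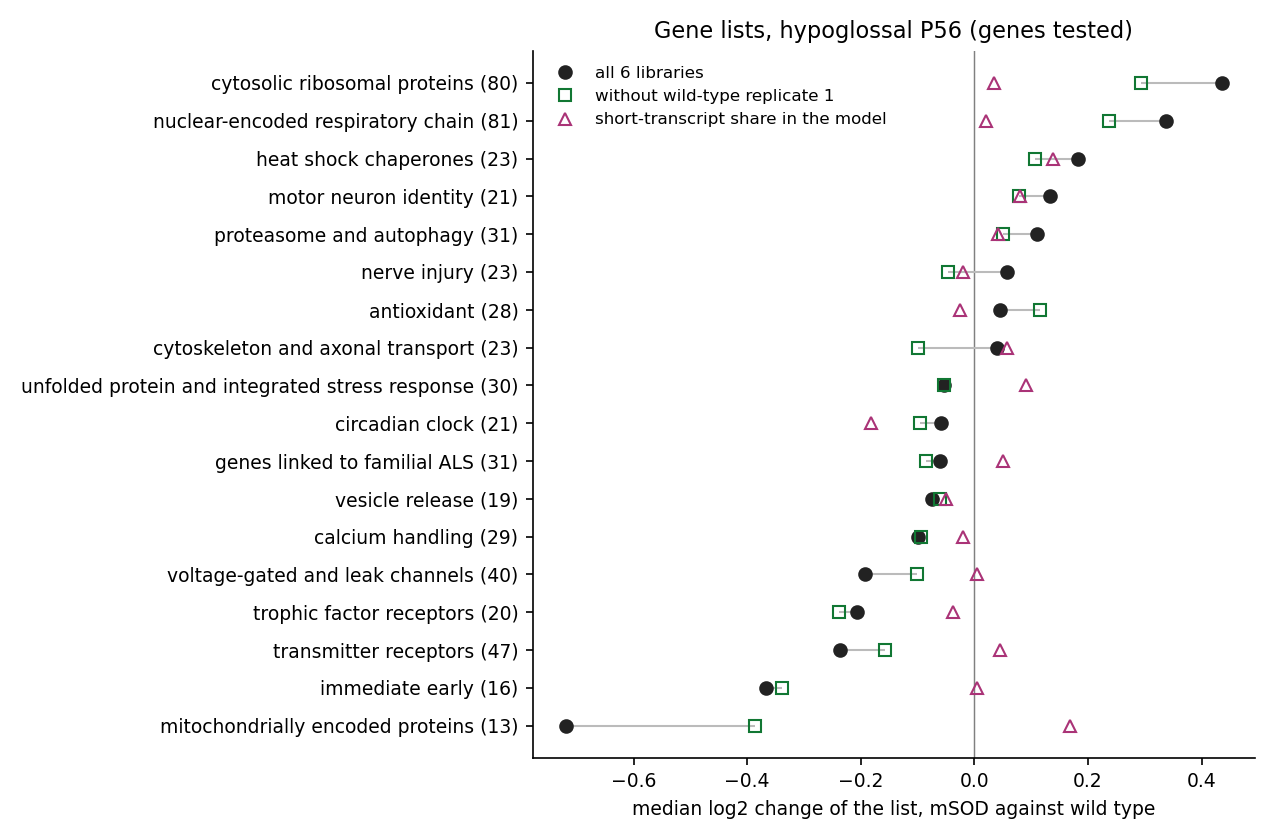
Median log2 change of 18 gene lists in hypoglossal neurons at P56, with the number of genes tested in brackets. Black circles are all 6 libraries, green squares leave out wild-type replicate 1 and purple triangles have the short-transcript share in the model. The medians run from 0.44 for ribosomal proteins to −0.72 for mitochondrially encoded proteins, and with the covariate these become 0.03 and 0.17.

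Nerve injury genes, which regenerating and diseased motor neurons induce, were split 12 higher and 11 lower with a median of 0.06 (−0.05 without wild-type replicate 1), and 0 were higher and 2 lower at an unadjusted p under 0.05 in edgeR. The same list had a median of 0.20 in CN3/4 and 0.97 in SC at P56, and 1.81 in CN12 at P112. In that order, 3, 6 and 13 of its 23 genes had an unadjusted p under 0.05 in edgeR. These counts stand against 592, 2211 and 810 of all 18493 genes tested, so the background was highest in SC. Atf3, the transcription factor at the head of the injury response, was at or near 0 in all 6 libraries (1.57, 0 and 0 CPM in wild type, 0.728, 0.590 and 2.39 in mSOD). Gal, the neuropeptide galanin, overlapped (11, 34.9 and 20.1 CPM against 59.5, 23.1 and 25.4). Cd63, a tetraspanin of late endosomes, was on the lower side (7.08, 4.91 and 6.40 CPM against 1.46, 1.92 and 3.83; log2 change −1.43, SE 0.61).

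Of 30 genes of the unfolded protein and integrated stress response, 13 were higher and 17 lower (1 and 1 at an unadjusted p under 0.05; median −0.05). Calr, the chaperone calreticulin, was higher without overlap (114, 158 and 172 CPM against 233, 214 and 201; log2 change 0.55, SE 0.21), while Hspa5 (BiP), the main chaperone of the endoplasmic reticulum, overlapped (298, 221 and 206 CPM against 205, 149 and 243; −0.28; 0.35 with the covariate). Of 23 heat shock chaperones, 15 were higher and 8 lower (2 and 2; median 0.18). Hspa8, the constitutive Hsc70, was measured at 2686, 2334 and 2619 CPM in wild type and 4049, 3954 and 2941 in mSOD (log2 change 0.52, SE 0.17, adjusted p 0.428; 0.57 without wild-type replicate 1). Hspb1, a small heat shock protein, was measured at 333, 797 and 666 CPM against 1251, 1089 and 850.5 (0.83, SE 0.33; 0.14 with the covariate). For both, each mSOD library lay above the wild-type range. The log2 changes of Hspa8 and Calr were 0.22 and 0.21 with the covariate.

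Proteasome and autophagy genes gave 20 higher and 11 lower of 31 (3 and 2; median 0.11). Psmb5, a catalytic subunit of the proteasome, had a log2 change of 0.56, Psma1 of −0.68 and the shuttle factor Ubqln2 of −0.85, which were −0.07, −0.19 and 0.15 with the covariate. Of 28 antioxidant genes tested, 17 were higher and 11 lower (4 and 0; median 0.04). Among these, the metallothioneins Mt3 (297, 522 and 561 CPM against 1018, 900.0 and 554; log2 change 0.84) and Mt1 (59.4, 75.3 and 97.2 CPM against 178, 99.7 and 98.4; 0.70) bind zinc and copper, Mt1 without overlap. Gpx1, a glutathione peroxidase, was measured at 124, 172 and 163 CPM against 243, 245 and 198 (0.58). The fourth was Ccs, the copper chaperone that loads SOD1, named after its values were seen: 7.08, 7.72 and 8.53 CPM in wild type and 13, 14.6 and 13.6 in mSOD, without overlap (0.82). With the covariate the log2 changes were 0.03 for Mt3, 0.46 for Mt1, −0.03 for Gpx1 and 0.23 for Ccs.

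Of 31 genes linked to familial ALS that were tested, 13 were higher and 18 lower (2 and 6; median −0.06). Chchd10, a protein of mitochondrial cristae, was measured at 267, 336 and 388 CPM in wild type and 729, 513 and 400 in mSOD (log2 change 0.73), without overlap, while Nek1, a kinase of the DNA damage response, had a log2 change of −0.87. Tardbp, which encodes TDP-43 and is named after its values were seen, was lower in each mSOD library (146, 124 and 104 CPM against 86.3, 70.9 and 89.0; −0.61). With the covariate the log2 changes of these 3 were 0.06, −0.14 and −0.04. Trophic factor receptors gave 6 higher and 14 lower of 20 (0 and 2; median −0.21), with Ret, the signalling receptor for GDNF, at 268, 339 and 311 CPM against 384, 316 and 322 (0.15).

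The 13 proteins encoded by mitochondrial DNA were all lower in mSOD, 8 of them at an unadjusted p under 0.05 and 0 by the adjusted test in edgeR, with a median log2 change of −0.72. mt-Co1, a core subunit of cytochrome oxidase, was measured at 21610, 10060 and 7096 CPM in wild type and 6082, 4347 and 7915 in mSOD (log2 change −1.08, SE 0.32, adjusted p 0.427; −0.48 without wild-type replicate 1). mt-Co3 was the one without overlap (26020, 12050 and 9812 CPM against 7927, 5281 and 9105; −1.10; −0.54 without wild-type replicate 1). Without wild-type replicate 1 all 13 were still lower, none at an unadjusted p under 0.05, with a median of −0.39, and with the covariate the median was 0.17. The median was 0.06 in CN3/4 and 0.93 in SC at P56 and −0.39 in CN12 at P112.

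Lists of cytosolic ribosomal proteins and of nuclear-encoded respiratory chain subunits were added after the values were seen. Both consist of short transcripts, with median lengths of 1100 and 1005 bases, and both lay on the opposite side of 0 from the mitochondrially encoded proteins, whose transcripts were shorter still (median 784 bases) and so went against the length pattern. Of 80 ribosomal protein genes tested, 75 were higher and 5 lower (36 and 1 at an unadjusted p under 0.05, median 0.44). Without overlap 25 of the 80 were higher, against 1452 of all 18493 genes tested. Among genes of like length these were 107 of 570 under 1000 bases and 137 of 919 from 1000 to under 1500 bases. Of 81 nuclear respiratory chain genes tested, 60 were higher and 21 lower (31 and 0; median 0.34), with Cox8a at 645, 941 and 1057 CPM against 1742, 1516 and 1114 (0.73; 0.14 with the covariate). Without wild-type replicate 1 the medians were 0.29 and 0.24, with 5 and 9 genes higher at an unadjusted p under 0.05, and with the covariate they were 0.03 and 0.02. In CN3/4 and SC at P56 they lay between −0.13 and 0.12. The signs of these medians and of the mitochondrial one were the same with RLE size factors and with human SOD1 left out of the library sizes.

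Whether the hypoglossal response differed from that of other nuclei was tested as a difference of genotype effects. Against CN3/4 at P56, the nuclei that are spared, 0 of 18493 genes (0%) differed at an adjusted p under 0.05 in edgeR, 1659 (8.97%) did at an unadjusted p under 0.05, and DESeq2 gave 6. The difference for Hlf was −2.93 (SE 0.81, adjusted p 0.554).

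Against SC at P56, 52 genes differed (0.281%), 40 with a more negative and 12 with a more positive log2 change in CN12. Of the 52, 40 were lower in CN12 and higher in SC, 11 were higher in CN12 and lower in SC, and 1 (Hpcal1, a neuronal calcium sensor, −0.10 and −1.47) was lower in both. In SC 24 of them had an adjusted p under 0.05 and in CN12 only Hlf, and the change was larger in size in CN12 for 20.

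Slc38a1, a glutamine transporter of neurons, was measured in CN12 at 117, 95.4 and 68.2 CPM in wild type and 67.7, 66.6 and 74.7 in mSOD, and in SC at 113, 102, 39.7, 80.6 and 71.3 against 149, 142, 118, 153 and 139 (difference −1.55, SE 0.29, adjusted p 0.0150). Its arms overlapped in CN12 and did not in SC. Fxyd7, a regulator of the sodium pump, went the other way: 286, 672 and 565 CPM against 965, 853 and 649 in CN12, and 204, 655, 1083, 923 and 866 against 388, 374, 353, 305 and 402 in SC (difference 2.10, SE 0.40, adjusted p 0.0150). Wild-type replicate 1 of each nucleus was the lowest of its arm for this gene.

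Others chosen by the same ranking were mt-Rnr1, the small mitochondrial ribosomal RNA (difference −2.33, SE 0.44), and Tmem223, a protein of mitochondria (1.59, SE 0.32, adjusted p 0.0161). Genes already described that were among the 52 included Hlf (−3.86, SE 0.78, adjusted p 0.0161), Plk2 (−6.13, SE 1.37, adjusted p 0.0285), Zfp536 (−4.49, SE 1.06, adjusted p 0.0412) and mt-Co1 (−2.03, SE 0.42, adjusted p 0.0211). The 52 held 6 mitochondrially encoded genes and 9 pseudogenes, whose counts are uncertain where a near-identical parent gene shares reads.

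Libraries and projects touch this difference. The SC P56 libraries came from project P6362 except wild-type replicates 1 and 2, which came from P11355. Those 2 libraries had the highest mitochondrial shares in SC (15.2% and 10.2%), while the wild-type libraries of P6362 had 3.73%, 4.59% and 3.92% and the mSOD libraries 6.56% to 9.29%. With the SC libraries of P6362 alone, 87 genes differed, 46 of the 52 among them. The count was 0 without CN12 wild-type replicate 1, 0 without CN12 mSOD replicate 2, 0 without SC wild-type replicate 3 and 0 without the project term, with 1399, 1654 and 1841 genes and 6.02% of genes at an unadjusted p under 0.05 in edgeR in that order. It was 10 without CN12 mSOD replicate 1, 18 without SC wild-type replicate 4, 17 without SC wild-type replicate 5, 33 without SC wild-type replicate 2, 34 without SC mSOD replicate 5 and 116 without SC wild-type replicate 1. With the short-transcript covariate it was 2, with none of the 52.

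**Figure D5:**
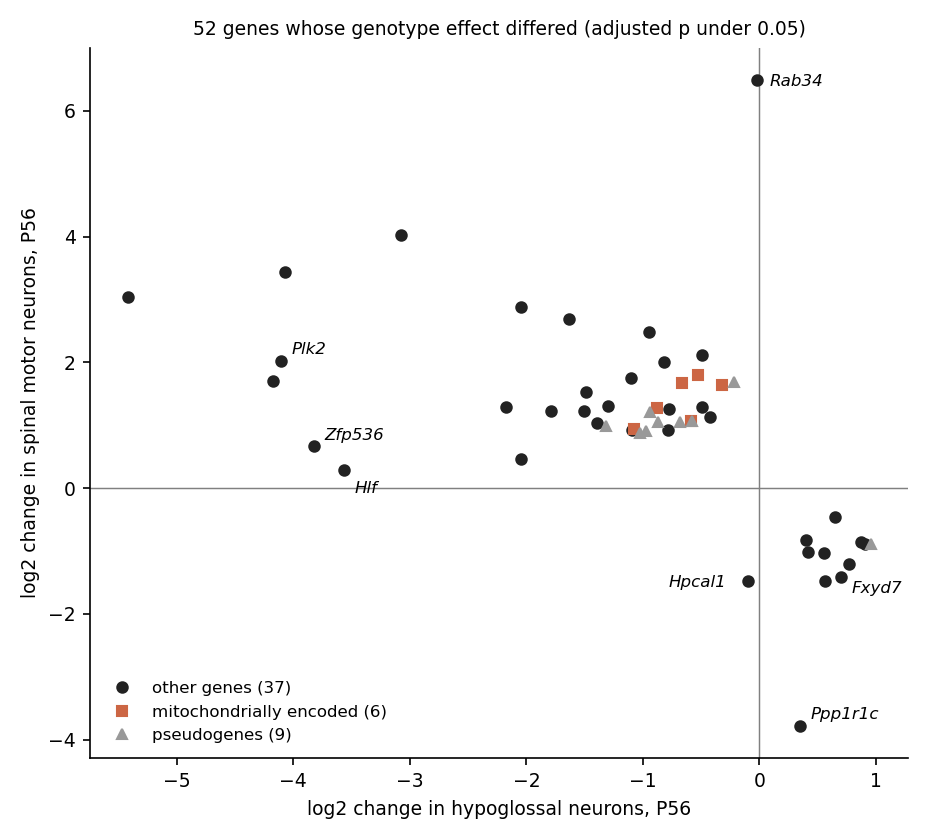
Log2 change (mSOD against wild type) at P56 in hypoglossal neurons (x axis) and in spinal motor neurons (y axis) for the 52 genes whose genotype effect differed between them at an adjusted p under 0.05. Squares are the 6 mitochondrially encoded genes, triangles the 9 pseudogenes and circles the other 37; 40 genes lie at upper left (lower in hypoglossal, higher in spinal neurons) and 11 at lower right.

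Between P56 and P112, the genotype effect in CN12 differed for 4 genes (0.0216%; 622 at an unadjusted p under 0.05), all more positive at P112: S100a11, a small calcium-binding protein (difference 6.31), Cd63 (4.47, adjusted p 0.0144), and the pseudogenes Cd63-ps (5.24, adjusted p 0.0119) and Gm12854 (6.19). A pseudogene and its parent can share reads, so these may be fewer than 4 independent signals. S100a11 was measured at P56 at 1.18, 0.936 and 1.42 CPM in wild type and 2.43, 0.885 and 0 in mSOD, with overlap. At P112 it was measured at 0.276, 1.65 and 0.601 CPM in wild type and 50.5, 91.3 and 135 in mSOD, where it rose (log2 change 6.43, SE 0.65). Cd63 was measured at P112 at 6.91, 4.55 and 5.71 CPM in wild type and 31.0, 42.0 and 55.4 in mSOD, against the lower mSOD values at P56 given above. The P112 libraries came from project P10814 except mSOD replicate 3, which came from P11355, so age and project cannot be told apart in the levels, and only the genotype effect, formed within each age, was compared. The count was 0 without CN12 P56 mSOD replicate 2 or wild-type replicate 3 (542 and 1022 at an unadjusted p under 0.05 in edgeR), and 1 without CN12 P56 wild-type replicate 1 or CN12 P112 wild-type replicate 2.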

How the data were processed

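Raw gene counts (whole numbers) were taken from the deposited table; RPKM values, length-scaled by the authors, came from a second one. Per the submitters' processing notes, STAR 2.7.0e and the builds mm39 and GRCm39 were used; the counting program and annotation are not given in the sources used here, and no coordinates are given. All 54 libraries entered one edgeR 4.0.16 fit in R 4.3.3: TMM factors, 16 group means, a project term, filterByExpr (18493 mouse genes) and the robust two-sided quasi-likelihood test, Benjamini-Hochberg adjusted. The human SOD1 row stayed in library sizes and out of the tests. CPM used TMM-scaled sizes; bounds used a floor of 3 counts per library. Tests were tried on simulated data. Transcript length and class came from GENCODE M21 by gene identifier. DESeq2 1.42.0, other scalings, filters, sample sets and left-out libraries were alternatives. RPKM only ranked list members. Members and gene lists were chosen with earlier results of these data known. Named genes were those passing, the 10 per direction with smallest p without overlap, and in each list the 3 with smallest p and 2 with highest RPKM. A few genes that this rule would name are not reported here.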

Additional observations from a re-analysis of the deposited data

Results flagged for a closer look

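The following differences of genotype effect were tested as such, with an interaction contrast in edgeR, and had an adjusted p under 0.05. Between hypoglossal and spinal motor neurons at P56, 52 genes differed. Of those named, the log2 change in hypoglossal neurons minus that in spinal neurons was −1.55 for Slc38a1, −2.33 for mt-Rnr1, −3.86 for Hlf, −2.03 for mt-Co1, −6.13 for Plk2 and −4.49 for Zfp536. It was 2.10 for Fxyd7 and 1.59 for Tmem223. All of the 52 were lost without hypoglossal wild-type replicate 1.

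Between P112 and P56 in hypoglossal neurons, 4 genes differed. The change at P112 minus that at P56 was 6.31 for S100a11, 4.47 for Cd63, 5.24 for Cd63-ps and 6.19 for Gm12854. Of the 4, 1 passed without P56 wild-type replicate 1.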

How the results depend on the processing

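Leaving out 1 library at a time gave 0 to 13 genes for mSOD against wild type in CN12 at P56 (1 with all libraries), 0 to 116 for the difference from SC (52 with all) and 0 to 4 for the difference between ages (4 with all). In the order of these comparisons, DESeq2 gave 12, 160 and 15 genes and no filter on low counts 133, 349 and 46. For the difference from CN3/4 (0 in the fit reported, 1659 at an unadjusted p under 0.05 in edgeR), DESeq2 gave 6 and no filter 74. Fitting project P11355 alone gave 0 genes for CN12 at P56 (1436 at an unadjusted p under 0.05 in edgeR), and the short-transcript share, added after seeing the data, gave 0 there (477 at an unadjusted p under 0.05) and 2 for the difference from SC. That difference had 0 genes without the project term (6.02% of genes at an unadjusted p under 0.05 in edgeR) and 87 with SC libraries of P6362 alone, an added alternative, and the difference between ages had 11 with only its groups fitted. The causes were not tested. No paired analysis was possible because the labels give these libraries no replicate numbers. Of the alternative values of list medians and the all-gene median, 436 moved by less than the spread between libraries and 24 by more. Some list medians changed sign, such as that of mitochondrially encoded proteins (−0.72, and 0.17 with the short-transcript covariate). Hlf, the gene called in CN12 at P56, had a negative log2 change under every setting. With 3 libraries an arm and a common dispersion of 0.113, small differences were not detectable, and genes of a few counts, such as Dll3, Plk2 and C1qc, are limited by counting error.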

Other observations

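Under settings that gave more genes for CN12 at P56, some named genes passed. Without wild-type replicate 2, the 13 genes in edgeR were all lower in mSOD and included Syt1 (log2 change −2.24, adjusted p 0.00501), Zfp536 (−4.29, adjusted p 0.0143), Elmo1 (−1.46, adjusted p 0.0176) and Cplx2 (−2.40, adjusted p 0.0497). That fit keeps the 2 wild-type libraries with the higher glutamatergic sums, and the part of those sums in these calls was not tested. Slc6a17, a vesicular amino acid transporter of neurons named after its values were seen, passed there (adjusted p 0.00156), in DESeq2 (adjusted p 0.00421) and without mSOD replicate 1 (adjusted p 0.0111). When only the 6 libraries were fitted, the gene that passed was not Hlf but 9430081H08Rik, which was higher in mSOD (log2 change 3.03, adjusted p 0.00197).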
